A study of Mus musculus with 6 samples.

Results

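The pannexins and connexins described here were 8 genes, Panx1, Panx2, Panx3, Gja1, Gja4, Gjb2, Gjb6 and Gjc1, of 43472 gene symbols counted in the intervertebral disc (IVD) of Adgrg6 mutant and control mice. They were chosen by their symbols and on measured values, with the difference between mutant and control libraries already known. That difference is therefore given for each gene as a description, with a standard error (SE) derived from the fit's test statistic. No test result is read from it. All 8 had enough counts to be among the 16152 genes that entered the fit.

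The study compared the RNA of whole IVDs from the thoracic and lumbar spine of mice with and without the adhesion G protein-coupled receptor ADGRG6, to find changes that come before visible disc pathology. The mutant group consisted of Col2Cre; Adgrg6f/f mice, in which Cre recombinase under type II collagen control removes a floxed part of Adgrg6 in cartilage-forming cells and, per the study's text, throughout the disc. The control group is named wild type in the genotype labels and Col2Cre control in the titles, and the study's text calls it Cre(-) littermates, so whether the control mice carried Cre cannot be told from the sources used here. All mice were of strain C57B6/J and 20 days old, no treatment is named, and each of the 3 libraries per group was a pool of discs from 2 to 3 mice.

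Connexins and pannexins are channel proteins that cross the membrane. Connexins assemble into hemichannels that can dock with those of a neighbouring cell to form gap junctions, through which ions and small metabolites pass from cell to cell. Pannexins form channels in the membrane of a single cell that release ATP and other small molecules, and the ATP released is then read by purinergic receptors and broken down by enzymes at the cell surface. In the skeleton, Panx3 is known from prehypertrophic and hypertrophic chondrocytes and from osteoblasts, and Gja1, which encodes the most widespread connexin, from osteoblasts, osteocytes and fibroblast-like cells.

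The families differ in their extracellular loops, and the coding bases of the first loop are shown because they set the families and their members apart. In 18 of the 19 mouse connexins whose reading frame could be read from GENCODE M21 transcripts, the first loop held 3 cysteine codons spaced by 6 and by 3 other codons, a window of 36 bases. The same spacing occurred somewhere in 2.09% of 21501 mouse reading frames and in 0 of the 3 pannexins. For the connexin members the window reads as follows, with the cysteine codons in capitals.
Gja1: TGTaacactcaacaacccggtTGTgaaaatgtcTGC
Gja4: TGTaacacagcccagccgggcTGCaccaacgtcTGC
Gjb2: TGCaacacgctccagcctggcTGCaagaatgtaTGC
Gjb6: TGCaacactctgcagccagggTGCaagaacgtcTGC
Gjc1: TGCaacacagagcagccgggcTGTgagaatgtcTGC

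Of the 36 bases in this window, Gjb2 and Gjb6 had 30 in common, whereas Gja1 had 24 in common with Gja4, 25 with Gjb2, 26 with Gjb6 and 28 with Gjc1. On GRCm38 these windows lie at chr10:56387706-56387741 on the plus strand in exon 2 of Gja1, at chr4:127312774-127312809 on the minus strand in exon 2 of Gja4 and at chr14:57100558-57100593 on the minus strand in exon 2 of Gjb2. Those of Gjb6 and Gjc1 lie at chr14:57124611-57124646 and chr11:102800984-102801019, both on the minus strand and both in exon 3 of the transcript used. In the pannexins, the first loop holds only 2 cysteine codons, 17 codons apart, in a window of 57 bases, shown in the same way.
Panx1: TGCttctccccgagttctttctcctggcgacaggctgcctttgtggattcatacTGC
Panx2: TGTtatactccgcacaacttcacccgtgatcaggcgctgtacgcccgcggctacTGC
Panx3: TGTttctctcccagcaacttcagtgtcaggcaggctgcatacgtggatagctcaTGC

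Panx3 had 34 of these 57 bases in common with Panx1 and 31 with Panx2. The windows lie in exon 2 of each gene, at chr9:15021451-15021507 on the minus strand for Panx1, chr15:89067572-89067628 on the plus strand for Panx2 and chr9:37666681-37666737 on the minus strand for Panx3. A pair of cysteine codons with this spacing is common, and 24.1% of the 21501 reading frames and 1 of the 19 connexins held one. The sequences were read in the coding direction from GENCODE M21 transcripts on GRCm38.

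Each library held between 9061491 and 12017008 counts on genes, or 40.4% to 44.2% of the reads in its table. Levels are given as CPM, the count of a gene relative to the library's total after TMM scaling, a correction for differences in library composition. Cartilage markers of the disc were abundant, and Col2a1, the gene of type II collagen, ranged from 62272 to 123857 CPM over the 6 libraries. Of 8 nucleus pulposus markers, 7 entered the fit, and their summed level was 2387 to 4926 CPM in control and 3124 to 5811 CPM in mutant libraries. None of them had an unadjusted p under 0.05, and their median log2 fold change was 0.09, at -0.20 to 0.53 with 1 library left out. The targeted gene, listed as Gpr126, had 123, 107 and 93.6 CPM in control replicates 1, 2 and 3 and 138, 123 and 106 CPM in mutant replicates 1, 2 and 3, a log2 fold change of 0.17 (SE 0.18) with an adjusted p of 0.849 by edgeR's quasi-likelihood test. These counts cover the whole gene and do not check the deletion of its floxed part. Across all 16152 genes the median log2 fold change was -0.01.

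Panx3, on chromosome 9 at 37659902 to 37669235 on the minus strand, was the most abundant pannexin and the member with the largest difference. Its level was 108, 87.9 and 65.9 CPM in control replicates 1, 2 and 3 and 36.7, 45.5 and 27.7 CPM in mutant replicates 1, 2 and 3. Every mutant library lay below every control library, and the highest mutant library, replicate 2, stayed below the lowest control library, replicate 3. The means were 87.3 ± 21.1 CPM (SD, n = 3) in control and 36.6 ± 8.92 CPM (SD, n = 3) in mutant discs, so that the mutant mean was 0.419 of the control mean, or 58.1% lower. This was a log2 fold change of -1.25 (SE 0.24). These values rest on 795 to 1013 counts in the control and 261 to 559 counts in the mutant libraries. In RNA from whole discs, fewer cells that express a gene and less RNA per cell cannot be told apart.

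Panx3 was the only 1 of the 8 members whose groups did not overlap, where 11.4% of all genes tested did not overlap, and the only one with an unadjusted p under 0.05, where 7.21% of all genes tested had one. Because the members were chosen with this contrast known, nothing is read from these counts. The median log2 fold change of the 8 members was -0.24.

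**Figure D1:**
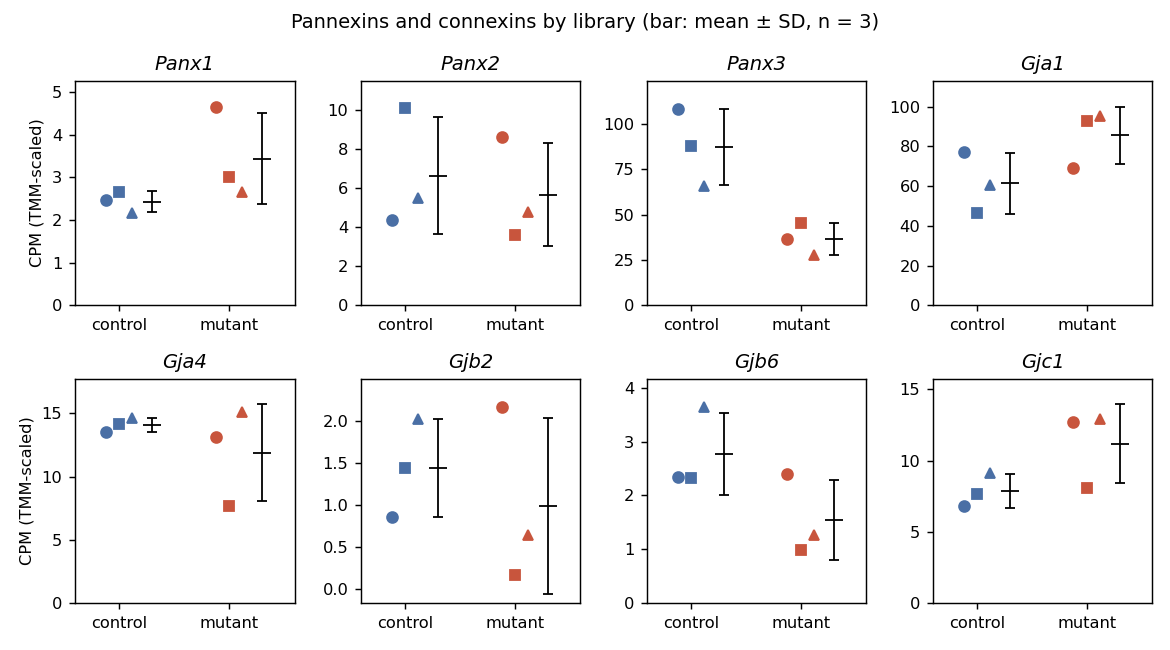
Level of each member in CPM (TMM-scaled) in the 3 control and 3 mutant libraries, with marker shapes for the replicates 1 to 3 and a bar at the mean with the SD. The Panx3 groups are apart, with control at 65.9 to 108 CPM and mutant at 27.7 to 45.5 CPM, and the groups of the other 7 genes overlap.

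The other pannexins were far less abundant. Panx1, the broadly expressed pannexin of many tissues, lies on the same chromosome as Panx3, 22614 kb away, at 15002128 to 15045478. Its level was 2.46, 2.65 and 2.17 CPM in control and 4.66, 3.01 and 2.65 CPM in mutant replicates 1, 2 and 3. Mutant replicate 1 was the highest of the 6 libraries, and mutant replicate 3 lay within the control range. Its log2 fold change was 0.50 (SE 0.46), from 23 to 41 counts per library, and 0.26 without mutant replicate 1, and the groups overlapped.

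Panx2, a pannexin best known from the nervous system, lies on chromosome 15 at 89059734 to 89073567. Its level was 4.38, 10.1 and 5.51 CPM in control and 8.63, 3.58 and 4.77 CPM in mutant replicates 1, 2 and 3. The highest value was in control replicate 2, the next in mutant replicate 1, and the groups overlapped. The log2 fold change of -0.24 (SE 0.44) turned to 0.17 without control replicate 2 and to 0.03 without mutant replicate 2. An antisense gene, 1810021B22Rik, runs across Panx2 on the other strand, with 0 exon bases shared and 269 counts in all.

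Per length of transcript, Panx3 made up most of the pannexin RNA in every library. For this purpose CPM was divided by the kilobases of all exon bases of a gene (RPKM). Panx3 was 95.1%, 88.8% and 91.0% of the summed RPKM of the 3 pannexins in control and 77.1%, 89.9% and 82.0% in mutant replicates 1, 2 and 3. Mutant replicate 2 lay within the control range of this share, and the other mutant libraries lay below it. The sum itself was 33.1, 28.8 and 21.1 RPKM in control and 13.9, 14.7 and 9.82 RPKM in mutant libraries, and every mutant library was below every control library.

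Among the connexins, Gja1 had the most counts of any member. Gja1 lies on chromosome 10 at 56377330 to 56402513 on the plus strand. Its level was 77.3, 46.3 and 60.5 CPM in control and 69.3, 92.7 and 95.2 CPM in mutant replicates 1, 2 and 3. Mutant replicates 2 and 3 were above all control libraries, and mutant replicate 1 was below control replicate 1, so the groups overlapped. Means were 61.4 ± 15.5 CPM (SD, n = 3) in control and 85.7 ± 14.3 CPM (SD, n = 3) in mutant discs, a log2 fold change of 0.48 (SE 0.22). Left-out libraries moved this estimate between 0.31, with control replicate 2 omitted, and 0.70, with control replicate 1 omitted.

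The balance of Gja1 and Panx3 is given as a description only. Both genes were chosen with the contrast known, and their ratio was chosen after seeing the data. The log2 ratio of their CPM within a library, Gja1 to Panx3, was -0.48, -0.92 and -0.12 in control and 0.92, 1.03 and 1.78 in mutant replicates 1, 2 and 3. Every mutant library was above every control library. The mean difference was 1.75 on the log2 scale, from the lower Panx3 and the higher Gja1 estimates together. The Panx3 groups were already apart by themselves, whereas the Gja1 groups overlapped.

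Gjc1, a connexin of vascular smooth muscle and the early heart, lies on chromosome 11 at 102799579 to 102819700. Its level was 6.83, 7.63 and 9.16 CPM in control and 12.7, 8.06 and 12.9 CPM in mutant replicates 1, 2 and 3. Mutant replicates 1 and 3 were above all control libraries and mutant replicate 2 lay between them. The log2 fold change was 0.50 (SE 0.28), with a range of 0.39 to 0.71 when 1 library was left out.

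Gja4 encodes a connexin of arterial endothelium and lies on chromosome 4 at 127311421 to 127314039. Its level was 13.5, 14.2 and 14.6 CPM in control and 13.1, 7.65 and 15.1 CPM in mutant replicates 1, 2 and 3. The control libraries were close together, at 14.1 ± 0.574 CPM (SD, n = 3), and only mutant replicate 2 stood well below them. The log2 fold change of -0.25 (SE 0.27) became 0.01 without that library.

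Gjb2 and Gjb6 are the paired connexins of the cochlea and the epidermis, and their genes lie side by side on chromosome 14, 18.6 kb apart, at 57098600 to 57104702 and 57123303 to 57133611. Both were near the limit of counting. Gjb2 had 8, 13 and 26 counts in control and 19, 2 and 6 counts in mutant replicates 1, 2 and 3, or 0.854, 1.44 and 2.02 CPM against 2.16, 0.163 and 0.636 CPM. The highest and the lowest library of the 6 were both mutant. The log2 fold change of -0.59 (SE 0.85) ran from -1.83 without mutant replicate 1 to -0.04 without mutant replicate 2, so no direction can be read at this depth.

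Gjb6 had 22, 21 and 47 counts in control and 21, 12 and 12 counts in mutant replicates 1, 2 and 3, or 2.35, 2.32 and 3.65 CPM against 2.39, 0.977 and 1.27 CPM. Control replicate 3 was the highest, and mutant replicate 1 was level with control replicates 1 and 2. Its log2 fold change was -0.86 (SE 0.56), with a range of -1.27, without mutant replicate 1, to -0.59, without mutant replicate 2, and it was -0.60 without control replicate 3.

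Background counts also differed between libraries. Genes of olfactory and vomeronasal receptors, which are silent outside sensory epithelium in general, had a summed level over 1423 genes of 22.1, 65.9 and 125 CPM in control and 15.7, 29.4 and 27.7 CPM in mutant replicates 1, 2 and 3. Control replicate 3 was the highest, and it was also the highest control library for Gjb2 and Gjb6. Panx3 went the other way among the control libraries and was lowest in control replicate 3, and without that library its log2 fold change was -1.41. What part these background counts have in the values of Gjb2 and Gjb6 was not tested.

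**Figure D2:**
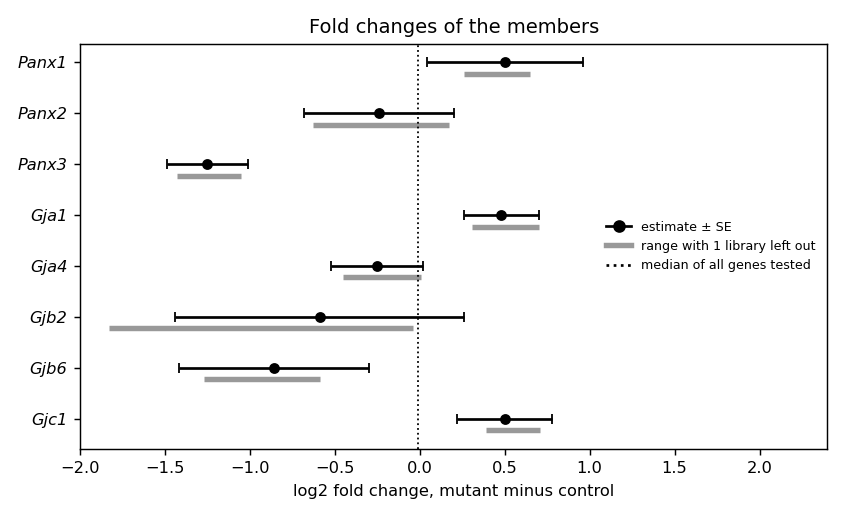
Log2 fold change of each member, mutant minus control, with its SE (black), the range of the estimate when each of the 6 libraries was left out in turn (grey) and the median of all genes tested (dotted, -0.01). The range of Panx3 stayed between -1.43 and -1.05, that of Gja1 between 0.31 and 0.70, and those of Panx2 and Gja4 crossed 0.

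Only values per length allow one member to be set against another. In control discs Panx3 had the highest level, at 25.4 RPKM (range 19.2 to 31.5), followed by Gja4 at 8.35 RPKM (7.99 to 8.66) and Gja1 at 5.99 RPKM (4.52 to 7.54). These 3 ranges did not overlap. Panx2 at 1.85 RPKM and Gjc1 at 1.57 RPKM came next and overlapped each other, followed by Gjb6 at 1.04 RPKM. Gjb2 at 0.597 RPKM and Panx1 at 0.403 RPKM were the lowest and were not separated by their ranges. The order of Gja1 and Gja4 depended on the length used, because the exon union of Gja1 holds 10257 bases and its longest protein-coding transcript 3182 bases. With the longest protein-coding transcript as the length, Gja1 stood at 19.3 RPKM and above Gja4 at 8.35 RPKM, Gjc1 at 3.40 RPKM moved ahead of Panx2 at 1.96 RPKM with overlapping ranges, and Panx3 remained first at 34.5 RPKM.

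With the exon union as the length, the distance between the leading members was smaller in mutant discs. Panx3 at 10.7 RPKM (8.06 to 13.3), Gja1 at 8.36 RPKM (6.76 to 9.28) and Gja4 at 7.08 RPKM (4.54 to 8.93) overlapped in that order. With the longest protein-coding transcript as the length, Gja1 at 26.9 RPKM was above Panx3 at 14.5 RPKM, without overlap. Lower down, Gjc1 at 2.25 RPKM and Panx2 at 1.57 RPKM overlapped, as did Gjb6 at 0.578, Panx1 at 0.571 and Gjb2 at 0.410 RPKM, each with the next in order.

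**Figure D3:**
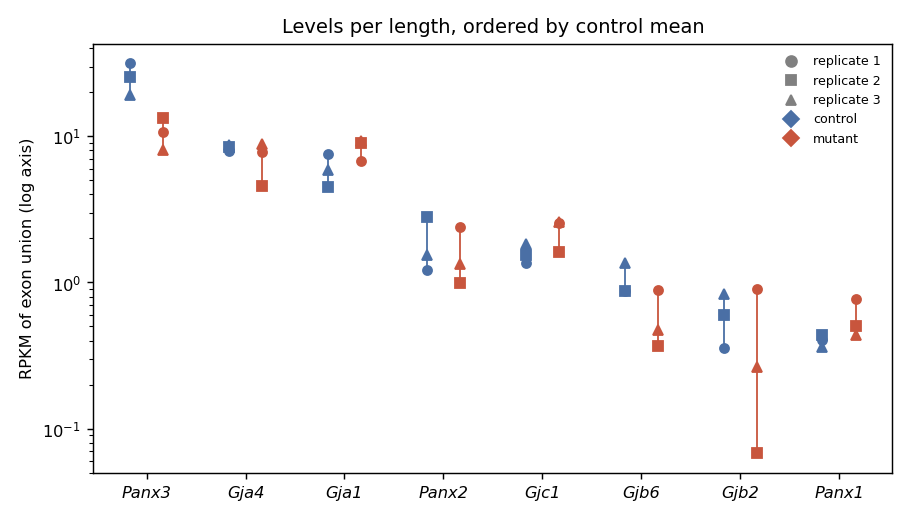
Level per length of each member in CPM per kilobase of exon union (RPKM, logarithmic axis) in every library, ordered by the control mean, with a line over the range of each group. Panx3 is clear of the other members in control discs at 19.2 to 31.5 RPKM, and its mutant range of 8.06 to 13.3 RPKM reaches those of Gja1 and Gja4.

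The 5 connexin members are 5 of 20 connexin genes in the count tables. Of the other 15 connexins, 3 had enough counts to be tested, and 4, Gja6, Gja10, Gjd2 and Gje1, had 0 counts in every library, which allows up to 3.69 counts per group by the exact 95% Poisson interval for counting error. Gjc3, a connexin of myelinating glia, was the most abundant of these, at 21.6, 34.6 and 30.9 CPM in control and 37.9, 21.7 and 21.5 CPM in mutant replicates 1, 2 and 3. Its groups overlapped, with a log2 fold change of -0.11 (SE 0.26). None of the 3 tested genes had an unadjusted p under 0.05, and their median was -0.32, at -0.97 to 0.02 with 1 library left out. Gja1 made up 30.5%, 16.0% and 20.3% of the summed RPKM of all 20 connexins in control and 22.7%, 41.5% and 32.9% in mutant replicates 1, 2 and 3, with overlapping groups. With the longest protein-coding transcript as the length these shares were 55.3%, 35.2% and 41.8% against 44.5%, 65.7% and 56.9%.

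Genes known from the same pathways were read from lists of 66 genes that are not members, of which 44 were tested. Of these 44 genes, 4, or 9.09%, had an unadjusted p under 0.05 by edgeR's quasi-likelihood test, against 7.21% of all genes, with 2 higher and 2 lower in the mutant. None passed after Benjamini-Hochberg adjustment over all genes, where the smallest adjusted p was 0.599, and DESeq2 and limma-voom also gave 0. The median log2 fold change of the 44 genes was 0.08, close to that of all genes.

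Among 10 partners of connexins at junctions, 2 were higher at that threshold and none lower, with a median log2 fold change of 0.26, at 0.21 to 0.39 with 1 library left out. Nov, which encodes the matricellular protein CCN3 that binds the Gja1 protein, was at 6.62, 6.52 and 8.85 CPM in control and 16.1, 13.1 and 15.9 CPM in mutant replicates 1, 2 and 3. Every mutant library was above every control library, with a log2 fold change of 1.03 (SE 0.24) and an edgeR p of 0.0018 before and 0.599 after adjustment. It kept a p under 0.05 when any 1 library was left out, at 0.00131 to 0.00869.

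Dbn1, which encodes the actin-binding protein drebrin that links the Gja1 protein to the cytoskeleton, was at 24.2, 23.3 and 18.4 CPM in control and 28.9, 29.5 and 34.4 CPM in mutant libraries. The groups did not overlap. Its log2 fold change was 0.49 (SE 0.18) with an edgeR p of 0.0217 before and 0.676 after adjustment, and the p rose to 0.0785 without control replicate 3 and 0.0799 without mutant replicate 3. Of the most counted partners, Nedd4, a ubiquitin ligase of connexins, had a log2 fold change of -0.04 (SE 0.20) and Cav1, a scaffold protein of membrane caveolae, 0.36 (SE 0.20), neither with an unadjusted p under 0.05.

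Of 12 other channels and carriers for ATP, 9 were tested and none had an unadjusted p under 0.05, with a median of 0.09 on the log2 scale, at -0.02 to 0.23 with 1 library left out. Ank, the carrier that supplies ATP and pyrophosphate to cartilage matrix, was the most counted, at 261, 260 and 173 CPM against 364, 287 and 287 CPM in mutant replicates 1, 2 and 3. Its groups did not overlap, and its log2 fold change was 0.43 (SE 0.22) with an edgeR p of 0.0754 and an adjusted p of 0.710. Slc17a9, which loads ATP into vesicles, had a log2 fold change of 0.03 (SE 0.24).

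The receptors that read the released nucleotides gave 1 lower gene of 12 tested and a median of 0.05, at -0.03 to 0.25 with 1 library left out. P2rx4 and Adora1, an ATP-gated channel and an adenosine receptor, were the most counted, with log2 fold changes of 0.01 (SE 0.16) and 0.02 (SE 0.24). Adora3 was lower, with a log2 fold change of -1.91 (SE 0.72) and an edgeR p of 0.0233 before and 0.676 after adjustment, on 80 counts in all 6 libraries together. Its p missed the threshold in 4 of 6 fits with 1 library left out, up to 0.14 without control replicate 3. On the same strand, 779 exon bases of Adora3 are shared with Tmigd3, so the reads cannot be assigned to one of them with certainty.

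Of 10 tested enzymes and carriers for extracellular nucleotides, 1 was lower, and the median was -0.02, at -0.18 to 0.09 with 1 library left out. Enpp3, an ectoenzyme that cleaves nucleotides, was at 2.14, 3.76 and 5.98 CPM in control and 1.48, 1.63 and 1.70 CPM in mutant libraries, a log2 fold change of -1.31 (SE 0.53) with an edgeR p of 0.0317 before and 0.676 after adjustment. That p missed the threshold in 5 of 6 fits with 1 library left out, up to 0.167 without control replicate 3, in which the silent receptor genes were also highest. What part those background counts have in Adora3 and Enpp3 was not tested. The most counted genes of the list, Alpl, the phosphatase that breaks down pyrophosphate, and Slc29a1, a nucleoside carrier, had log2 fold changes of -0.25 (SE 0.22) and 0.12 (SE 0.21).

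**Figure D4:**
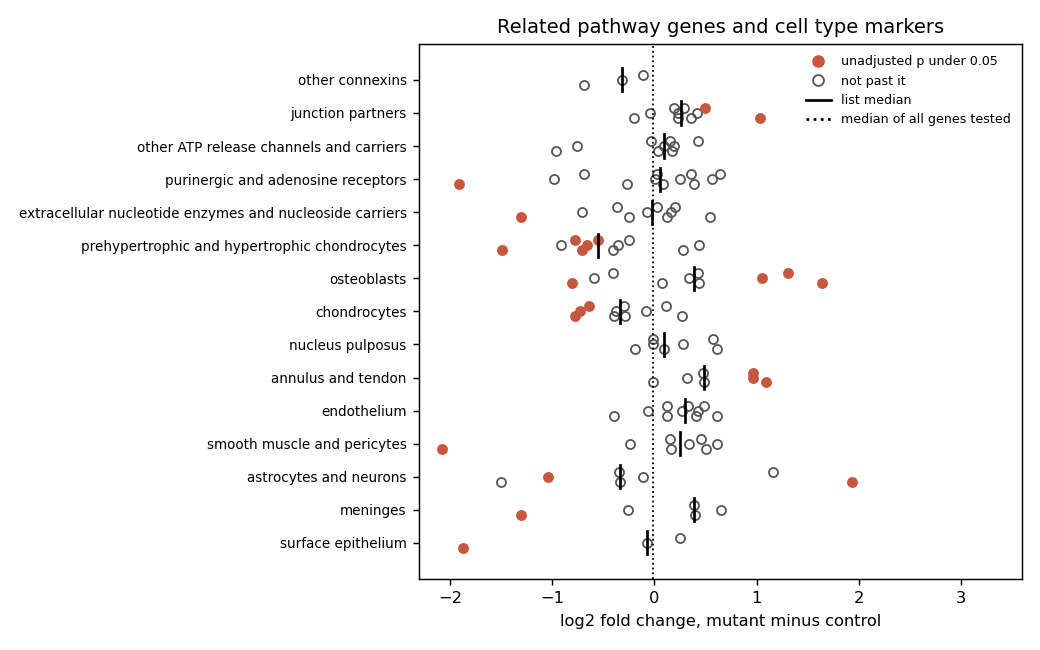
Log2 fold change, mutant minus control, of every tested gene of 5 pathway lists and 10 marker lists, filled where the unadjusted p was under 0.05, with list medians (bars) and the median of all genes (dotted, -0.01). Prehypertrophic and hypertrophic markers have a median of -0.55, and annulus and tendon markers one of 0.48.

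Markers of the cells in which the members are known were measured beside them, and their part in the members' values was not tested. Panx3 was set first against prehypertrophic and hypertrophic chondrocytes, of which 5 of 11 tested markers were lower and none higher at an unadjusted p under 0.05 by edgeR, with a median of -0.55, which was -0.34 without control replicate 1, and none past adjustment in that fit. Ihh, the hedgehog ligand of prehypertrophic chondrocytes, was at 188, 188 and 112 CPM in control and 63.2, 47.6 and 63.5 CPM in mutant replicates 1, 2 and 3, with a log2 fold change of -1.49 (SE 0.24), an edgeR p of 8.88e-05 and an adjusted p of 0.287. The adjusted p of Ihh was 2.28e-05 in edgeR without the filter on low counts. It was 4.34e-06 in DESeq2 and above 0.05 over the other alternatives. DESeq2 gave a p for 26372 genes, against 16152 in the main fit. It adjusted over the genes left by its own filter on mean counts. For Ihh, every mutant library was below every control library. The others were Pth1r, the receptor for parathyroid hormone-related protein, at -0.71 (SE 0.24), and the transcription factors Runx2, Runx3 and Mef2c at -0.55, -0.78 and -0.66. All 4 missed the threshold in at least 2 fits with 1 library left out, with p up to 0.136, without control replicate 1, for Runx2, whereas Ihh did not, at 1.69e-05 to 0.000637. The summed level of the 11 markers was 2764 to 4193 CPM in control and 2552 to 3093 CPM in mutant libraries, and no marker was at 0 in all libraries.

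Relative to this summed level, the log2 ratio of Panx3 was -5.28, -5.22 and -5.39 in control and -6.40, -5.96 and -6.53 in mutant replicates 1, 2 and 3. Every mutant library was lower, by a mean of 1.0 on the log2 scale, so the difference in Panx3 was larger than that in the sum. Without Spp1, which made up 15.7% to 30.6% of the sum, the difference was -0.84, with every mutant library still lower. Spp1 itself was at 585 to 719 CPM in control and 776 to 826 CPM in mutant libraries. Relative to Ihh alone, the log2 ratio of Panx3 was -0.79, -1.10 and -0.76 in control and -0.78, -0.06 and -1.20 in mutant libraries, and the groups overlapped with a mean difference of 0.20. Relative to Col10a1, the collagen of hypertrophic cartilage, the groups also overlapped, with a mean difference of -0.35, and relative to Sp7, a transcription factor of hypertrophic chondrocytes and osteoblasts, with one of -0.81.

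Osteoblast markers, the other known source of Panx3 and one of Gja1, were not lower as a list. At the same unadjusted threshold, 3 of 10 were higher and 1 lower, with a median of 0.39, which was 0.18 without control replicate 3, and none past adjustment in the filtered edgeR fit. Sp7 and Ibsp stand on this list and on that of hypertrophic chondrocytes. Bglap, the gene of osteocalcin, was at 6.51, 5.31 and 5.59 CPM in control and 18.0, 25.4 and 10.9 CPM in mutant replicates 1, 2 and 3, with a log2 fold change of 1.64 (SE 0.32) and an edgeR p of 0.000415 before and 0.476 after adjustment. Its groups did not overlap. Its adjusted p was 0.0005 in edgeR without the filter, 0.006 in DESeq2 and above 0.05 in the other alternatives. Bglap2 and Col1a1 were also higher, at 1.31 and 1.05, and Phex, an endopeptidase of osteocytes, was lower at -0.81. The calls of Col1a1 and Phex each held in only 2 of 6 fits with 1 library left out. The list's sum was 4214 to 13419 CPM in control and 12166 to 20650 CPM in mutant libraries, and none of its markers was at 0 in all libraries. Relative to this sum, the log2 ratio of Panx3 was lower in every mutant library, with a mean difference of -2.39, whereas that of Gja1 overlapped, with one of -0.64. Col1a1 made up 91.4% to 97.8% of the sum, and without it the differences were -1.56 for Panx3, with every mutant library lower, and 0.19 for Gja1, with overlap.

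Among 10 general chondrocyte markers, 3 were lower and none higher at an unadjusted p under 0.05 by edgeR, with a median of -0.34, which was -0.21 without control replicate 1, and none past adjustment. They were Col9a2, Col9a3 and Matn3, genes of cartilage matrix, at -0.64, -0.73 and -0.78, and each lost its call in at least 3 fits with 1 library left out, at p up to 0.123 for Col9a2 without mutant replicate 2. The sum, of which Col2a1 made up 74.7% to 86.4%, was 83357 to 140711 CPM in control and 116309 to 144273 CPM in mutant libraries. Relative to it, Panx3 was lower in every mutant library, with a mean difference of -1.43 on the log2 scale, or -0.82 without Col2a1. The log2 ratio of Gja1 to the same sum overlapped between groups, with a mean difference of 0.32. Without Col2a1 the Gja1 ratio was higher in every mutant library, with a mean difference of 0.93.

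**Figure D5:**
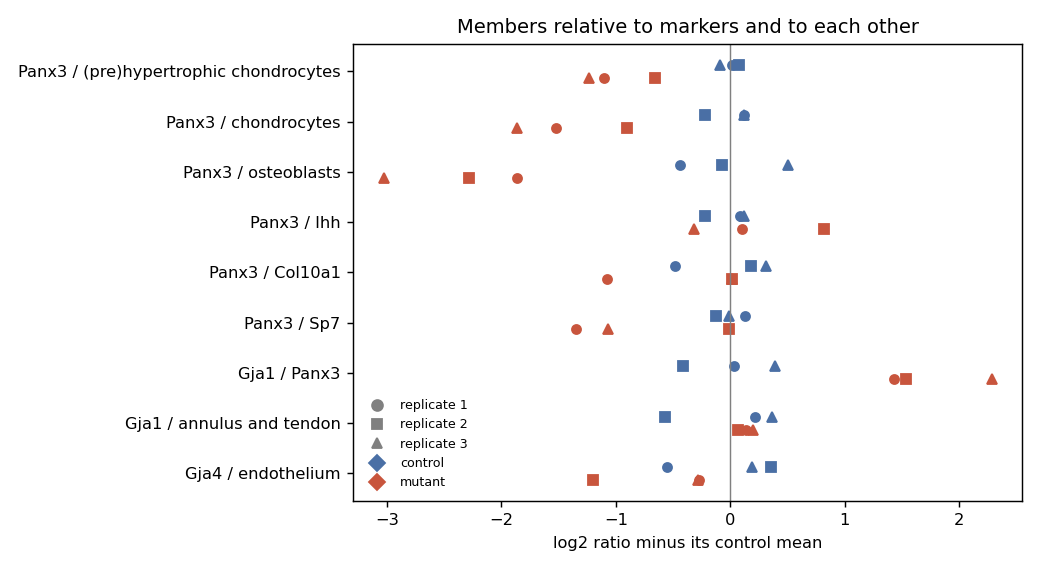
Log2 ratio of the CPM of a member to the summed CPM of a marker list, or to the CPM of 1 gene, in every library, minus the mean of the 3 control libraries. Panx3 is lower in all mutant libraries relative to the 3 lists of skeletal cells and overlaps control relative to Ihh, Col10a1 and Sp7, and the ratio of Gja1 to Panx3 is higher in all mutant libraries.

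Gja1 and the vascular connexins were set against markers of fibrous and vascular cells. Annulus and tendon markers had a median of 0.48, which was 0.83 without control replicate 2, with Thbs4, Tnmd and Tnc, genes of fibrous matrix and tendon, higher at 1.09, 0.96 and 0.96 on the log2 scale by edgeR, with adjusted p of 0.553, 0.629 and 0.676. Without the filter on low counts their adjusted p was 0.00233, 0.00734 and 0.0169. DESeq2 gave an adjusted p of 0.00404 for Thbs4. Without control replicate 1 the adjusted p was 0.0389 for Thbs4 and 0.0361 for Tnc. In the other alternatives all 3 stayed above 0.05. All 3 kept an unadjusted p under 0.05 when any 1 library was left out. The sum of this list was 2905 to 4251 CPM in control and 3877 to 5450 CPM in mutant libraries, with no marker at 0 in all libraries, and the log2 ratio of Gja1 to it differed by a mean of 0.13 with overlapping groups. Fmod, a proteoglycan of fibrous matrix, made up 90.0% to 94.2% of the sum, and without it the difference was -0.34, again with overlap. Endothelial markers had a median of 0.30, which was 0.13 without control replicate 2 and 0.65 without control replicate 1, and no call among 10, and a sum of 190 to 339 CPM in control and 269 to 314 CPM in mutant libraries. Gja4 relative to that sum was -4.65, -3.74 and -3.91 on the log2 scale in control and -4.37, -5.30 and -4.38 in mutant libraries, which overlap. Smooth muscle and pericyte markers had a median of 0.25, at 0.19 to 0.41 with 1 library left out, with 6 of 8 estimates higher, and a sum of 864 to 1064 CPM in control and 837 to 1175 CPM in mutant libraries. Only Des had an unadjusted p under 0.05. It was lower, at a log2 fold change of -2.08 (SE 0.91) with an edgeR p of 0.0446 before and 0.691 after adjustment, or 0.00203 after adjustment without the filter. Its level of 127 CPM in control replicate 1 stood against 5.20 to 13.1 CPM in the other 5 libraries, and without that library its log2 fold change was 0.43 with a p of 0.27. Gjc1 relative to the sum of this list differed by a mean of 0.44 with overlapping groups. Cspg4 alone made up 39.3% to 63.3% of that sum, and without it the difference was 0.16.

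Panx2, Gjb2 and Gjb6 were set against markers of astrocytes and neurons, of meninges and of surface epithelium. Of 7 tested markers of astrocytes and neurons, Gfap was higher, at a log2 fold change of 1.93 (SE 0.58), and Rbfox3 was lower, at -1.04 (SE 0.40). The groups of Gfap overlapped, and its edgeR p was 0.00776 before and 0.676 after adjustment, the latter 3.6e-05 without the filter on low counts and 0.237 or more in the other alternatives. The p of Rbfox3 missed the threshold in 3 of 6 fits with 1 library left out, up to 0.171 without control replicate 3. The list's median was -0.34, with 5 of 7 estimates lower, but it was 0.20 without mutant replicate 3 and -1.04 in limma-voom. Of the markers, 1 of the 8 listed was at 0 in every library. Their summed level was 43.8 to 81.1 CPM in control and 58.6 to 132 CPM in mutant libraries. Without Gfap, the sum was 34.1 to 59.1 CPM in control and 29.7 to 53.1 CPM in mutant libraries. Relative to the sum with Gfap, Panx2 and Gjb6 were lower in every mutant library, with mean differences of -0.91 and -1.59 on the log2 scale, but without Gfap the groups of both overlapped, with mean differences of -0.02 and -0.70. Meningeal markers summed to 56.6 to 104 CPM in control and 52.4 to 139 CPM in mutant libraries. Foxc1 made up 71.1% to 86.1% of this sum. Their median was 0.39 with 3 of 5 estimates higher, at 0.02 to 0.60 with 1 library left out. It was -0.24 both without the filter and in DESeq2, each over 7 rather than 5 genes. The 1 of 5 with an unadjusted p under 0.05 was Slc47a1, which was lower at -1.31 (SE 0.58) and had a p of 0.149 without control replicate 3. Surface epithelium was at 7.69 to 19.8 CPM in control and 7.38 to 9.65 CPM in mutant libraries, with a median of -0.07, at -0.25 to 0.07 with 1 library left out, and 1 lower gene of 3 tested, Trp63, whose p was 0.144 without control replicate 3. Gjb2 overlapped between groups relative to the sums of meninges and of surface epithelium, and Gjb6 was lower in every mutant library relative to that of meninges, with a mean difference of -1.18, or -0.96 without Foxc1.

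The genes with the nearest patterns over the 6 libraries were found by the root-mean-square difference of log2 CPM around each gene's own mean, among 9955 tested genes with a mean of at least 10 CPM, and they serve as a description only. Nearest to Panx3 were Slc13a5, a citrate carrier, at 0.215, Il17b, a cytokine, at 0.260, Mpped2 at 0.266, Coil at 0.284 and Gm13847 at 0.286. Slc13a5 was at 117, 110 and 86.9 CPM in control and 55.2, 52.4 and 46.5 CPM in mutant replicates 1, 2 and 3, and Il17b at 51.8, 60.9 and 47.9 against 19.0, 24.0 and 20.9 CPM. In both, all mutant libraries were below all control libraries, as in Panx3, whose pattern they were picked to match. Nearest to Gja1 were Mob3c at 0.077, Mylk, the myosin light chain kinase of smooth muscle, at 0.087, Mfhas1 at 0.090, Rhoj, an endothelial small GTPase, at 0.104, and Acvrl1, an endothelial receptor for bone morphogenetic proteins, at 0.111. Mylk was at 55.0, 33.8 and 41.6 CPM in control and 52.5, 71.0 and 79.3 CPM in mutant libraries, with control replicate 2 lowest and mutant replicates 2 and 3 highest, as for Gja1.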

How the data were processed

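RNA-seq was made from poly(A) RNA of 6 pools of IVDs, 3 per group, each from 2 to 3 mice. The authors deposited 1 table of raw counts per gene symbol for each library. Their processing notes name STAR 2.5.3a, HTSeq and DESeq2 with GRCm38, and the study's methods name Cutadapt, HISAT2 and StringTie, so the aligner is uncertain, and the strand setting is not given in the sources used here. The closing lines of the tables, which name no gene, held 39.4% to 43.3% of reads outside features and stayed out of library sizes. A table of the authors' own comparison was not used.

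Counts were scaled by TMM and tested with the quasi-likelihood test of edgeR 4.0.16 in R 4.3.3, after filterByExpr with a count minimum of 10 and with Benjamini-Hochberg adjustment over all genes tested, and the procedure was tested on simulated data. Genes were called at a p under 0.05, before or after adjustment. Each SE was the absolute log2 fold change divided by the square root of the quasi-likelihood F statistic. Log2 ratios used no pseudocount, and nearest patterns one of 0.5 CPM. All 8 symbols were found in GENCODE M21. The reads carry no molecular identifiers, so amplified copies of the same molecule may be counted more than once. The depth of about 9061491 to 12017008 counts gives at best precision for counting error. The members and the gene lists were chosen with earlier results of these data known. The background sums of sensory receptors, the ratios to single genes and the marker sums without their most counted gene were chosen after seeing the data. Named genes were all members and the targeted gene, listed genes with an unadjusted p under 0.05 or among the 2 with the highest control level of their list, the 5 nearest patterns of Panx3 and Gja1, and genes that overlap a member. One gene that this rule names is not reported here. Alternatives were RLE size factors, no filter, DESeq2 1.42.0, a block for the replicate number, limma-voom 3.58.1, unscaled totals, another gene length and leaving out each library. The DESeq2 alternative gave a p for 26372 genes rather than 16152, so it differs from the main fit in the genes tested as well. Its adjustment covered only the genes left by its own filter on mean counts.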

Additional observations from a re-analysis of the deposited data

How the results depend on the processing

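The log2 fold changes of Panx3 and Gja1 kept their sign under all 11 alternatives, at -1.43 to -1.05 and 0.31 to 0.70 with 1 library left out. Those of Panx1, Gjb2, Gjb6 and Gjc1 also kept theirs, so this does not set Panx3 and Gja1 apart. The sign changed in 2 alternatives for Panx2 and in 1 for Gja4. Over all genes, 1164 had an unadjusted p under 0.05, and this was 2276 of 26418 genes without the filter and 618 (without control replicate 3) to 2427 (without control replicate 1) with 1 library left out. After adjustment 1 gene, Prss50, passed, and this was 245 without the filter, 52 with DESeq2, 0 with limma-voom and 0 with the replicate block. It was 0 to 31 with 1 library left out, the 31 without control replicate 1. The DESeq2 fit tested 26372 genes, against 16152 in the main fit, so the genes tested changed along with the tool. Of the pathway genes, 4 had an unadjusted p under 0.05 and 1 (without mutant replicate 3) to 8 (without control replicate 1) with 1 library left out. With the replicate number as a block, 1002 genes had an unadjusted p under 0.05, 3 of them in the pathway lists. In their deviations from group means, same-numbered libraries correlated at 0.129, -0.172 and 0.093, and differently numbered ones at -0.258 to 0.179. With 3 libraries per group and ranges this alike, these values cannot show whether the numbers pair the samples. The cause of these shifts was not tested. Depth limits Panx1, Gjb2 and Gjb6, which had at most 47 counts in any library.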
